A study of Drosophila melanogaster with 5 samples.

Results

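The vacuolar ATPase (V-ATPase) is a rotary proton pump. Its peripheral V1 domain hydrolyses ATP and its membrane V0 domain passes protons, and together they acidify lysosomes, endosomes and synaptic vesicles. In insects the pump also sits in the apical membrane of Malpighian tubule cells, where it energises ion and fluid secretion. In *Drosophila melanogaster* most subunits are encoded by several genes. By convention the unnumbered gene or the -1 copy is the general form and many of the higher-numbered paralogs are known from restricted tissues, the male germline among them, although Vha68-2 and Vha100-2 are known as widely expressed copies.

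The members here were all transcripts whose RefSeq identifier maps to a current gene symbol beginning with Vha. These were 74 transcripts of 33 genes, of 34111 transcripts and 16987 gene symbols listed in all. The genes were divided by name into 13 general genes (no number after a hyphen, or -1), 15 paralogs (-2 and higher) and 5 genes that the numbering does not cover, VhaM9.7-a to VhaM9.7-d and VhaAC45RP. RNA came from wild-type Oregon-R adult males labelled as 3 days old, pooled within each vial. In LB-flies (3 vials) the whole development took place at low background radiation in an underground laboratory, and in NB-flies (2 vials) at the natural background of a ground laboratory. Both groups had the same genotype and no other treatment, so radiation and any other difference between the rooms cannot be told apart. The vials belonged to 1 experiment, and the p-values below measure the spread between vials. The restriction of the paralogs to a tissue could not be checked in whole males.

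The libraries held 23027411 to 26036113 counted reads, and 53.9 to 56.5% of all records were set aside as ambiguous because they could be assigned to more than 1 feature. This bears on which V-ATPase genes were measured. Counts were made per transcript, and a read that matches several transcripts of a gene alike falls under ambiguous in such a count, although the counting mode used is not given in the sources used here. No count was listed for 32 of the 74 Vha transcripts, 2 had 1 to 9 counts in all, and 40 transcripts of 31 genes reached the minimum of 10 counts and were tested. In the general genes 23 of their 40 transcripts had no count and 16 were tested, against 6 without a count and 19 tested of the 26 paralog transcripts. Of the 8 transcripts of the other 5 genes, 3 had no count and 5 were tested.

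In Vha44, the V1 subunit C that links the peripheral stalks, and in Vha100-1, the a subunit known from synaptic vesicles, every exonic base of the annotation belonged to 2 or more transcripts. All 5 transcripts of Vha44 and all 10 of Vha100-1 stood at 0 in every library, which says nothing about the expression of these genes. The 14 genes with 1 transcript held 324549 of the 364999 Vha counts (88.9%), and the 19 genes with several transcripts held the other 11.1%. In those 19 genes the share of exonic bases private to 1 transcript ran from 0 to 64.7%, with a median of 9.97%. Vha68-2, a main catalytic A subunit with 6 transcripts, had 84 counts in all 5 libraries together. Levels of genes with several transcripts are therefore not comparable with those of genes with 1 transcript. VhaPPA1-1 had 5611 counts beside only 4 private bases, so private bases do not account for its counts, which are uncertain. Reads across private splice junctions and differences between annotations were not tested.

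**Figure D1:**
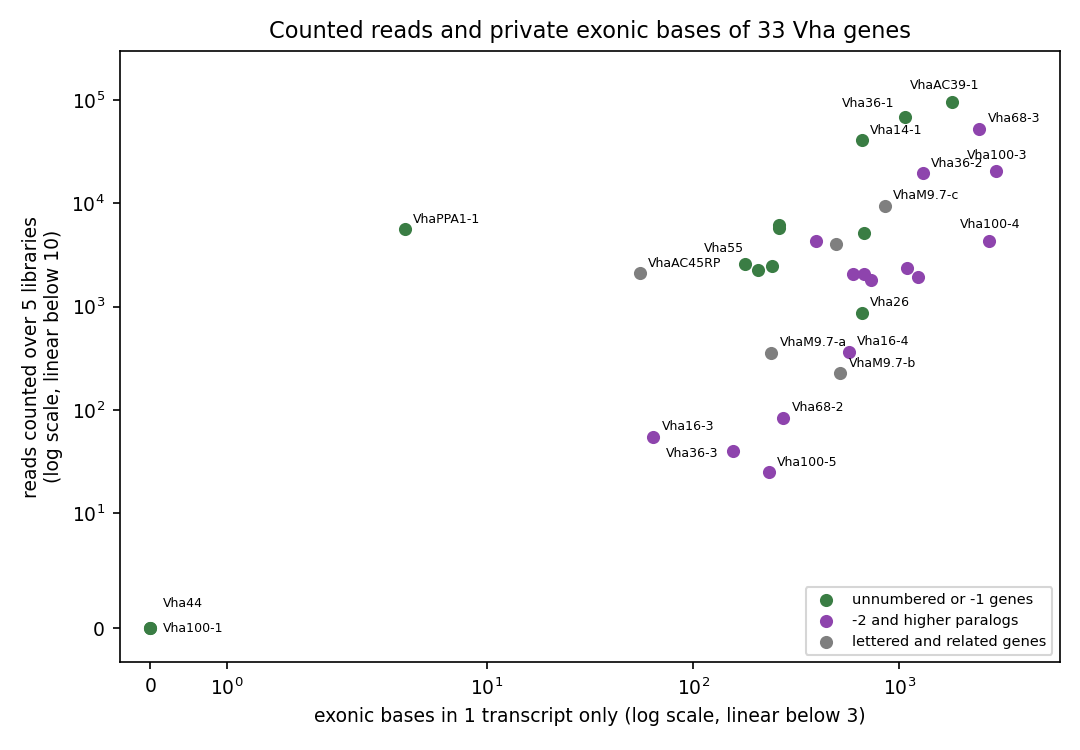
Reads counted over the 5 libraries (y axis, log scale that is linear below 10) against the exonic bases found in 1 transcript only (x axis, log scale that is linear below 3) for the 33 Vha genes, coloured by class; the genes discussed are named. Vha44 and Vha100-1 have 0 private bases and 0 counts, and VhaPPA1-1 stands apart with 4 private bases and 5611 counts.

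Among the 14 genes with 1 transcript, the general copies were the most abundant, given as CPM (counts per 1000000 counted reads, with TMM-adjusted library totals) per kb of exon and as the mean ± SD of all 5 libraries. Vha36-1, the D subunit of the central rotor (2R:15541435-15542498), stood at 527.5 ± 63.8 CPM per kb. Vha14-1, the F subunit of the same rotor (2R:15679426-15680084), stood at 506 ± 56.8, and VhaAC39-1, the V0 subunit d that joins rotor and membrane ring (X:3880748-3882967), at 438 ± 30.5. The ranges of neighbours in this order overlapped, so the order of these 3 genes was not resolved.

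The most abundant paralogs followed. Vha68-3, an A subunit copy (2L:12978786-12981293), had 177 ± 20.9 CPM per kb and Vha36-2, a D subunit copy (2R:12257282-12258652), 124 ± 22.1, and the ranges of these genes touched neither each other nor those of the 3 general genes. VhaM9.7-c and VhaM9.7-d, small membrane e subunits, had 91.3 ± 9.49 and 67.6 ± 8.55. Vha100-3, an a subunit copy, had 56.7 ± 3.91. The range of each of these overlapped that of the next, from Vha36-2 down to Vha100-3.

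The remaining paralogs were low. Vha16-2, a copy of the proteolipid c subunit, had 28.3 ± 3.70 CPM per kb, VhaPPA1-2, a copy of the c'' proteolipid, 25.0 ± 3.53, and Vha16-5, another c copy, 20.3 ± 2.13. Vha100-4, an a subunit known for acid secretion in the midgut, had 13.0 ± 2.26, VhaAC39-2, the d subunit copy, 12.8 ± 1.68, and Vha16-4, a further c copy, 5.28 ± 1.37. The first 3 of these overlapped each other in order, as did Vha100-4 and VhaAC39-2, while Vha16-4 lay below all others. Within subunit D the -2 copy was thus lower than the -1 copy in every library, and the same held within subunit d.

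**Figure D2:**
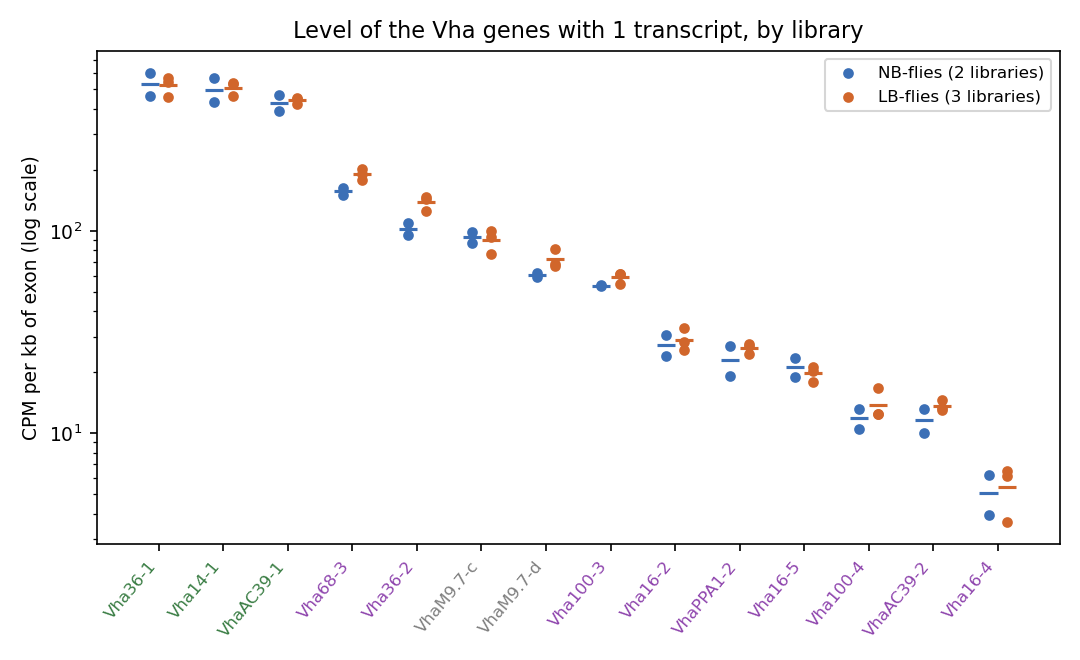
CPM per kb of exon (y axis, log scale) of the 14 Vha genes with 1 transcript, with 1 point per library and a bar at the mean of each group (blue, 2 NB libraries; orange, 3 LB libraries). The 3 general genes (green names) lie between 391 and 601 in every library, above all 11 other genes.

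No V-ATPase transcript was called different between LB-flies and NB-flies. By the quasi-likelihood test of edgeR, with p-values adjusted after Benjamini and Hochberg, an FDR of 0.05 and 1.5-fold, 0 of 40 Vha transcripts passed, as did 0 of all 17337 transcripts tested (0%). DESeq2 called 76 of the 17337 (0.438%) and none of the 40. At an unadjusted p under 0.05, 1 of the 40 passed by either tool, Vha36-2. Of all transcripts 7.57% passed by edgeR, and 1103 of the 17337 by DESeq2. In CPM, every LB library exceeded both NB libraries in 7 of the 40 (14.8% of all transcripts). In 2 every LB library was lower (13.1% of all transcripts). For the 34 transcripts with at least 100 counts in all, log2 fold changes ran from -0.37 to 0.56 with standard errors of 0.118 to 0.496. The 95% interval stayed within 2-fold for 33 of these 34 and within 1.5-fold for 15, and the intervals of the other 19 reached past 1.5-fold. In RNA from whole flies, fewer cells of a type and less RNA per cell cannot be told apart.

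**Figure D3:**
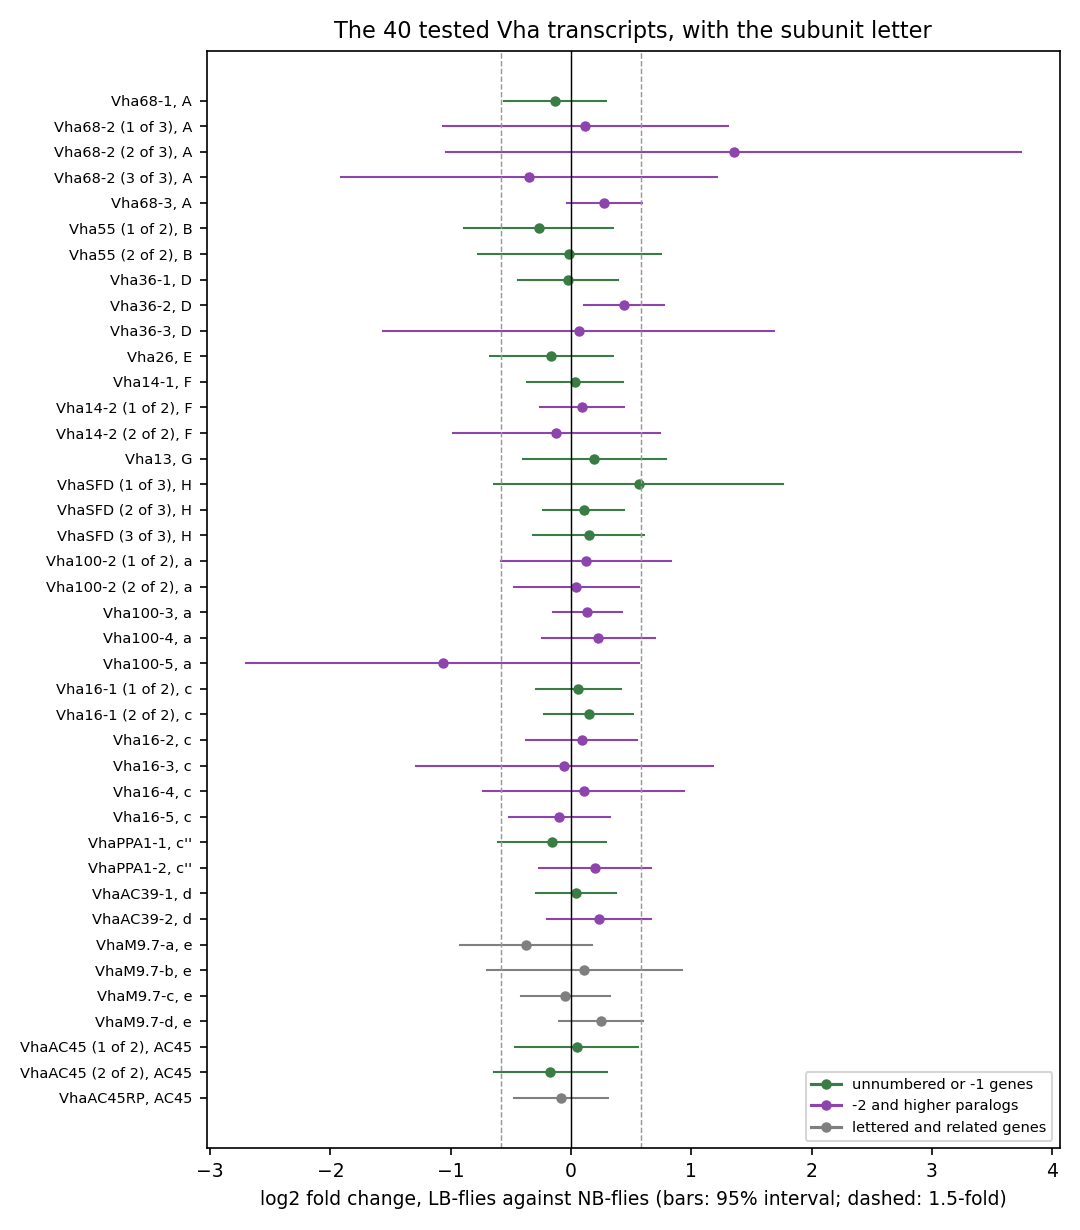
Log2 fold change of LB-flies against NB-flies (x axis) with its 95% interval from edgeR's quasi-likelihood test for the 40 tested Vha transcripts, ordered from V1 to V0 and accessory subunits and coloured by class; dashed lines mark 1.5-fold. Only the interval of Vha36-2 (0.11 to 0.77) leaves out 0.

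The general subunits lay close to the centre of all transcripts. Their 16 tested transcripts had a median log2 fold change of 0.04, with 9 higher and 7 lower in LB-flies, beside -0.02 for all transcripts. The 19 paralog transcripts had a median of 0.10, with 14 higher and 5 lower, and 0.10 also without Vha68-2 and Vha100-2. LB and NB values were apart in 1 of the 16 general transcripts (above) and in 6 of the 19 paralog transcripts (5 above, 1 below). Over all transcripts 14.8% were apart above and 13.1% below. The 6 include a Vha68-2 transcript with 33 counts in all and Vha100-5 with 25. In the genes with 1 transcript the medians were 0.03 for 3 general genes and 0.20 for 9 paralogs, of which 8 were higher and 3 apart. The V1 and V0 transcripts had medians of 0.08 and 0.09. No test was run on the difference between the classes.

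These medians depended on single libraries of both groups. NB 1 was above NB 2 in 13 of the 14 genes with 1 transcript, with a median gap of 0.32 on the log2 scale, while over all transcripts it was above in 51.1%, with a median gap of 0.01. Without NB 2 the median of the 9 paralogs was 0.05, with 5 higher, and that of the 3 general genes was -0.15. Without NB 1 the medians were 0.40 and 0.18. The median of the 3 general genes was also below 0 without LB 2 or LB 3, at -0.02 in both. The median of all 19 paralog transcripts was 0.02 without LB 1 and 0.07 without NB 2. All Vha counts together made up 0.298 and 0.275% of the counted reads for NB-flies against 0.302, 0.304 and 0.311% for LB-flies.

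In the V1 head, ATP is bound by the A and B subunits. Vha68-3 had 400 and 369 CPM in NB-flies and 434, 467 and 497 CPM in LB-flies. Every LB library was above both NB libraries, with a log2 fold change of 0.28 (SE 0.13, unadjusted p = 0.0726, adjusted p = 0.625 by edgeR). It lies 178 bases from Vha68-2 and 19476 bases from Vha68-1, in 1 cluster of A subunit genes on 2L. The tested transcript of Vha68-1 had 49.4 and 49.1 CPM in NB-flies and 46.1, 52.2 and 36.2 CPM in LB-flies, with overlapping groups and a log2 fold change of -0.13 (SE 0.18). Vha68-2 had 3 tested transcripts of 0 to 11 counts per library, too few for a level. In 1 of them LB and NB were apart, at 7 and 0 counts for NB-flies against 8, 7 and 11 for LB-flies (log2 fold change 1.35, SE 0.99). Vha55 encodes the B subunit. Its most counted transcript had 22.7 and 14.1 CPM in NB-flies and 16.3, 12.4 and 17.2 CPM in LB-flies, and the NB libraries differed more from each other than the group means did (log2 fold change -0.27, SE 0.26).

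The central rotor holds the D and F subunits, and a D gene was the only member at an unadjusted p under 0.05. Vha36-2 had 141 and 123 CPM in NB-flies and 161, 190 and 186 CPM in LB-flies. The groups did not overlap, with means of 179 ± 15.4 (SD, n = 3) and 132 ± 13.0 (SD, n = 2) CPM. The log2 fold change was 0.44 (SE 0.14, 95% interval 0.11 to 0.77, unadjusted p = 0.0177, adjusted p = 0.625 by edgeR). With each library left out in turn it ranged from 0.34 to 0.54, and the unadjusted p of edgeR was under 0.05 in 2 of these 5 fits and 0.119, 0.0940 and 0.0580 without NB 2, LB 2 and LB 3. Vha36-1 had 640 and 495 CPM in NB-flies and 487, 608 and 576 CPM in LB-flies, with overlapping groups and a log2 fold change of -0.03 (SE 0.17). Vha36-3, a further D gene, had 3 to 15 counts per library.

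Vha14-1, the general F subunit, had 373 and 284 CPM in NB-flies and 305, 350 and 354 CPM in LB-flies, so all 3 LB values fell between the NB values (log2 fold change 0.03, SE 0.16). The more counted transcript of Vha14-2 had 16.4 and 16.6 CPM in NB-flies and 16.6, 18.8 and 17.3 CPM in LB-flies. These groups were barely apart, with a log2 fold change of 0.09 (SE 0.14). Its other transcript had 1.38 to 2.95 CPM, with overlapping groups.

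The level of Vha36-2 was also read against its general partner within each library, which removes what scales both genes alike. Per kb of exon, Vha36-2 was 18.1 and 20.4% of Vha36-1 for NB-flies against 27.2, 25.6 and 26.5% for LB-flies. The groups were apart, at 26.5 ± 0.820% (SD) against 19.3 ± 1.59% (SD), and the 2-sided exact permutation p of 0.1 was the smallest that 3 libraries against 2 can give (0.2 after Benjamini-Hochberg adjustment over 2 ratios). VhaAC39-2 was 2.81 and 2.55% of VhaAC39-1 for NB-flies against 3.41, 2.87 and 2.97% for LB-flies. These groups were only just apart, with 2.87% in LB 2 beside 2.81% in NB 1 (exact permutation p = 0.2, adjusted 0.2). Both ratios were chosen with the values of these genes known, and no other subunit has a general copy and a paralog with 1 transcript each.

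**Figure D4:**
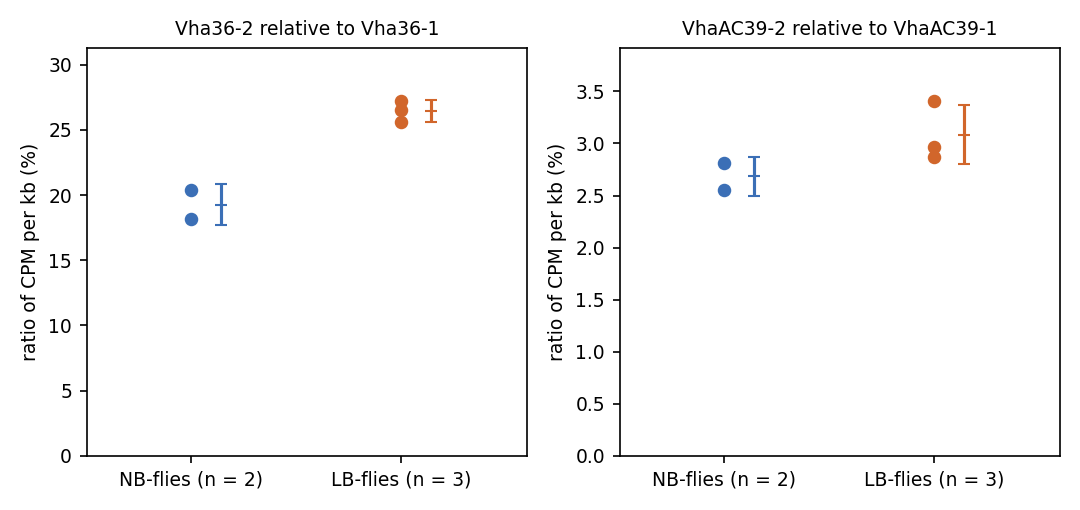
Level of the -2 copy as a percentage of the -1 copy of the same subunit in each library, both as CPM per kb of exon, for subunit D (left) and subunit d (right); points are libraries, and bars show the mean ± SD of each group. For subunit D the LB points lie at 25.6 to 27.2% and the NB points at 18.1 and 20.4%.

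The peripheral stalks of V1 are built from the E and G subunits. Vha26, subunit E, had 8.54 and 6.71 CPM in NB-flies and 7.22, 7.45 and 5.77 CPM in LB-flies in its only tested transcript, with overlapping groups (log2 fold change -0.16, SE 0.21). Vha13, subunit G, had 19.7 and 18.1 CPM in NB-flies and 18.0, 28.8 and 18.1 CPM in LB-flies. Its log2 fold change of 0.19 (SE 0.25) rested on LB 2 and was -0.08 without that library. VhaSFD, the regulatory subunit H, had 3 tested transcripts. The most counted had 37.1 and 32.3 CPM in NB-flies and 40.1, 37.6 and 34.3 CPM in LB-flies, with overlapping groups (log2 fold change 0.11, SE 0.14). In another, at 3.63 and 4.07 against 4.12, 4.23 and 4.43 CPM, the groups were apart, with a log2 fold change of 0.15 (SE 0.19). The remaining transcript, at 17 to 60 counts per library, had the widest interval of the 34, with a log2 fold change of 0.56 (SE 0.50) and overlapping groups.

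In the V0 domain, protons pass between the a subunit and the ring of c proteolipids. Vha100-3 had 158 and 156 CPM in NB-flies and 160, 179 and 179 CPM in LB-flies. The groups were apart, with LB 1 just above NB 1, and the log2 fold change was 0.14 (SE 0.12, unadjusted p = 0.291 by edgeR). Vha100-4 had 36.0 and 28.5 CPM in NB-flies and 33.8, 34.1 and 45.4 CPM in LB-flies, and Vha100-2, counted in 2 transcripts, had log2 fold changes of 0.13 and 0.05 with overlapping groups. Vha100-5 had 7 and 8 counts for NB-flies against 6, 3 and 1 for LB-flies. Its groups were apart downwards, but the 25 counts gave a log2 fold change of -1.07 with an SE of 0.68 (unadjusted p = 0.163 by edgeR). In the annotation 527 of its exonic bases lie opposite the antisense gene asRNA:CR44144. The library kit kept strand, but the strand setting of the counting is not given in the sources used here, so reads of such pairs may be mixed.

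The c ring did not separate the groups in any of its genes. The 2 tested transcripts of Vha16-1, the general c subunit, had log2 fold changes of 0.06 and 0.15. The more counted had 37.5 and 33.9 CPM in NB-flies and 32.5, 38.9 and 40.3 CPM in LB-flies. The paralogs Vha16-2, Vha16-4 and Vha16-5 had log2 fold changes of 0.09, 0.10 and -0.10, and Vha16-3 had 6 to 14 counts per library in its tested transcript. Vha16-2 and Vha16-3 lie 985 bases apart on 3L, and 503 of the 595 exonic bases of Vha16-2 lie opposite asRNA:CR46049, which had 1 to 7 counts per library. VhaPPA1-1, the general c'' proteolipid, had 55.7 and 42.1 CPM in NB-flies and 36.8, 46.4 and 48.3 CPM in LB-flies (log2 fold change -0.16, SE 0.19), values that carry the uncertainty of its 4 private bases. Its paralog VhaPPA1-2, 2052 bases away on 3R, had 18.0 and 12.8 CPM in NB-flies and 18.6, 16.4 and 18.1 CPM in LB-flies (log2 fold change 0.20, SE 0.19). In both genes the NB libraries differed more than the group means.

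For subunit d of V0, VhaAC39-1 had 841 and 701 CPM in NB-flies and 762, 813 and 806 CPM in LB-flies. It was the most counted Vha transcript, and all LB values lay between the NB values (log2 fold change 0.04, SE 0.14, 95% interval within 1.5-fold). VhaAC39-2 had 16.3 and 12.3 CPM in NB-flies and 17.9, 16.1 and 16.5 CPM in LB-flies, where LB 2 fell just below NB 1 (log2 fold change 0.23, SE 0.18).

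The e subunits had fold changes of both signs. VhaM9.7-c had 73.9 and 84.1 CPM in NB-flies and 79.3, 84.7 and 65.3 CPM in LB-flies, with overlapping groups (log2 fold change -0.05, SE 0.15). VhaM9.7-d had 30.7 and 29.2 CPM in NB-flies and 33.7, 40.2 and 33.2 CPM in LB-flies, apart upwards, with a log2 fold change of 0.25 (SE 0.14, unadjusted p = 0.127 by edgeR). VhaM9.7-a had 3.79 and 2.99 CPM in NB-flies and 2.29, 2.86 and 2.70 CPM in LB-flies, apart downwards, with a log2 fold change of -0.37 (SE 0.23, unadjusted p = 0.150 by edgeR). VhaM9.7-b, at 1.41 to 2.54 CPM, overlapped.

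Of the accessory proteins, which help to assemble and sort the pump, VhaAC45 had log2 fold changes of 0.05 and -0.17 in its 2 tested transcripts. VhaAC45RP, a related protein known from neurons, had 17.1 and 18.5 CPM in NB-flies and 18.1, 17.8 and 14.6 CPM in LB-flies (log2 fold change -0.08, SE 0.16). In all 3 transcripts the groups overlapped. ATP6AP2, a further accessory protein that the symbol rule does not take in, had 841 and 668 CPM in NB-flies and 694, 787 and 725 CPM in LB-flies (log2 fold change -0.04, SE 0.15).

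Markers of other tissues were measured beside the paralogs. Of 21 transcripts of testis markers, 18 were higher in LB-flies, with a median log2 fold change of 0.26, and in 11 every LB value was above both NB values (14.8% of all transcripts). One transcript of mia was apart downwards (-0.48), and the other lower transcripts were of mia (-0.55) and bam (-0.60). Their summed level was 5809 and 5354 CPM in NB-flies and 6557, 6938 and 6792 CPM in LB-flies. The 21 came from 20 of the 21 marker genes matched, and the other, twe, had 0 counts in its 4 transcripts. Of these, the spermatid gene Mst98Ca had a log2 fold change of 0.34 and the testis proteasome subunit Prosalpha6T one of 0.37, beside 0.44 for Vha36-2 and 0.28 for Vha68-3. The part of the testis RNA in the paralog values was not tested. Without NB 2 the testis median was 0.23 and that of the 9 paralogs with 1 transcript was 0.05, and without LB 1 they were 0.15 and 0.19. Of the other markers, 4 of 7 midgut transcripts and 9 of 22 neuron transcripts lay below NB-flies in all LB libraries (13.1% of all transcripts), with medians of -0.45 and -0.41. LB 1 stood apart in the midgut list, with a median deviation from the mean of the 5 libraries of -0.92 (log2 CPM). This deviation was 0.16 in LB 2, -0.08 in LB 3, 0.51 in NB 1 and 0.25 in NB 2. The 22 neuron transcripts came from 10 genes, and the 9 were transcripts of cac, Syt1, brp, ChAT and VAChT. The 12 Malpighian tubule transcripts had a median of 0.03, but LB 3 stood apart in their sum, at 550 and 480 CPM in NB-flies and 560, 464 and 1057 CPM in LB-flies, of which Uro alone held 945 CPM in LB 3.

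**Figure D5:**
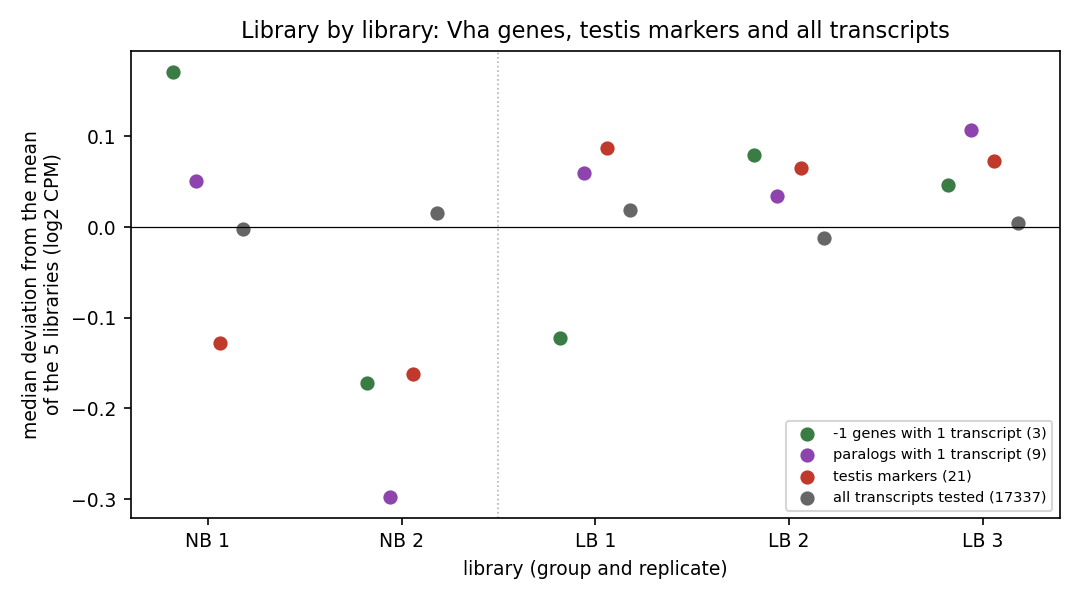
Median deviation of each library (x axis, group and replicate) from the mean of the 5 libraries on the log2 CPM scale (y axis) for the 3 general and 9 paralog Vha genes with 1 transcript, 21 testis marker transcripts and all 17337 transcripts tested. The median of the testis markers is below 0 in both NB libraries, and that of the 9 paralogs in NB 2 alone. Among the 9, both NB values lay below every LB value in Vha68-3, Vha36-2 and Vha100-3, and the groups overlapped in the other 6.

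The genes that work with the pump were looked at as lists. None of their transcripts was called by edgeR, which called 0 of all 17337, and 1, Vmat, by DESeq2, which called 0.438% of all transcripts. The 14 transcripts of assembly, RAVE and transcription factors had a median log2 fold change of -0.25, but 9 of them were isoforms of 1 gene, mtd, which has a TLDc domain. Without mtd the other 5 had a median of -0.09, with 4 lower. Mitf, the transcription factor that in *Drosophila* controls V-ATPase genes, had 8.46 and 7.14 CPM in NB-flies and 5.84, 6.77 and 6.24 CPM in LB-flies. Its groups were apart downwards, with a log2 fold change of -0.31 (SE 0.18, unadjusted p = 0.137 by edgeR). In all, 5 of the 14 transcripts were apart downwards, against 13.1% of all transcripts, and the other 4 were all of mtd, at -0.33 to -1.40. The mtd transcript at -1.40 had only 1 to 11 counts per library (SE 0.67). Another of the 4 had 20.8 and 22.9 CPM in NB-flies and 16.1, 17.7 and 16.5 CPM in LB-flies (log2 fold change -0.38, SE 0.14, unadjusted p = 0.0342 by edgeR). Rbcn-3A and Rbcn-3B, which in *Drosophila* are needed for V-ATPase activity, had log2 fold changes of -0.11 and -0.09 with overlapping groups.

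The transporters that use the proton gradient to fill synaptic vesicles were lower in 5 of 6 transcripts, with a median log2 fold change of -0.28. Vmat, the monoamine transporter, had 18.1 and 16.0 CPM in NB-flies and 9.74, 7.68 and 10.3 CPM in LB-flies (log2 fold change -0.88, SE 0.19, unadjusted p = 0.00296 by edgeR). VGAT, the GABA transporter, had 52.6 and 53.9 CPM in NB-flies and 44.4, 41.0 and 42.3 CPM in LB-flies (log2 fold change -0.32). Both had the sign of most neuron markers, a list that shares VAChT with this one. The neuron markers' summed level was 442 and 475 CPM in NB-flies and 431, 358 and 330 CPM in LB-flies, and its part in these values was not tested.

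Lysosome genes were mixed. Of 14 transcripts of enzymes and membrane proteins of the lysosome 6 were higher and 8 lower, with a median log2 fold change of -0.18. By edgeR, 3 of the 14 were at an unadjusted p under 0.05, against 7.57% of all transcripts. These were transcripts of CtsF, Hexo2 and Gba1a, each with an adjusted p of 0.625 by edgeR. CtsF, a cathepsin, had 35.7 and 32.9 CPM in NB-flies and 45.6, 42.6 and 46.4 CPM in LB-flies (log2 fold change 0.39, SE 0.12). Another transcript of CtsF overlapped (log2 fold change 0.13, SE 0.23). Hexo2, a hexosaminidase, had 245 and 228 CPM in NB-flies and 133, 188 and 195 CPM in LB-flies (log2 fold change -0.46, SE 0.19). Gba1a, a glucocerebrosidase, had 99.5 and 101 CPM in NB-flies and 19.1, 58.2 and 61.7 CPM in LB-flies (log2 fold change -1.11, SE 0.46). The lysosomal membrane protein Lamp1 had a log2 fold change of -0.11 with overlapping groups. The 11 transcripts of the TORC1 machinery on the lysosome had a median of -0.20, with 9 lower, and none was at an unadjusted p under 0.05. The smallest p among them belonged to Lst8 (log2 fold change -0.27, SE 0.15), Lamtor3 (-0.40, SE 0.23) and RagC-D (-0.20, SE 0.12).

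The 41 transcripts of epithelial ion and water transport had a median log2 fold change of -0.09, with 24 lower. A transcript of Atpalpha, the catalytic subunit of the sodium pump, had 23.9 and 21.5 CPM in NB-flies and 18.5, 15.9 and 16.8 CPM in LB-flies (log2 fold change -0.41, SE 0.15, unadjusted p = 0.0305 by edgeR). A transcript of Nhe2, a sodium/proton exchanger, had 2.26 and 2.57 CPM in NB-flies and 1.26, 1.59 and 1.73 CPM in LB-flies (log2 fold change -0.66, SE 0.25, unadjusted p = 0.0362 by edgeR). In both the groups were apart. By edgeR, 2 of the 41 were at an unadjusted p under 0.05, against 7.57% of all transcripts. Both were minor transcripts of their genes. The most counted of Atpalpha, at 332 to 471 CPM, was also apart downwards (log2 fold change -0.32, SE 0.13), and its remaining transcripts ran from -1.08 to 0.05. The most counted of Nhe2, at 19.0 to 31.3 CPM, overlapped (-0.26, SE 0.21), and its remaining transcripts had 0.37 and 0.17.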

How the data were processed

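Poly(A) RNA of 5 libraries was sequenced on stranded libraries. The authors trimmed the reads, mapped them with HISAT2 to BDGP6 (dm6) and counted reads per RefSeq transcript with HTSeq, and the deposited values are raw counts. The strand setting and counting mode are not given in the sources used here. Of 34111 identifiers, 33766 matched RefSeq gene names with their version and 33910 without it. Private exonic bases came from the Ensembl annotation, which gives all 33 genes the same number of transcripts. A transcript needed 10 counts or more over all libraries, which 17337 had, and these were tested with edgeR 4.0.16 (R 4.3.3; TMM, quasi-likelihood test, called at an FDR of 0.05 and 1.5-fold), checked on simulated data. The 95% intervals used the SE and the degrees of freedom of that fit. CPM were computed from the counts with TMM-adjusted library sizes, and 3 counts, the limit that a count of 0 allows, are 0.115 to 0.136 CPM by library (counting error only). Alternatives were DESeq2 1.42.0, other scalings, filters, summed transcripts, replicate blocks and leaving out each library. Members, gene lists and ratios were chosen with earlier results of these data known. Values by library are given for Vha transcripts at an unadjusted p under 0.05 or apart by at least 0.5 on the log2 scale and for the most counted of each subunit. Named list genes were those at an unadjusted p under 0.05, or the 3 with the smallest p. Other members, other list genes (Mitf, Rbcn-3A, Rbcn-3B, Lamp1) and the markers named were picked with their values seen. VhaAC45L and rye were not matched. Promoter motifs were not analysed here.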

Additional observations from a re-analysis of the deposited data

How the results depend on the processing

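No Vha transcript was called under any of the 13 alternatives. The count at an unadjusted p under 0.05, 1 in the fit reported, was 0 with either replicate block and 0 to 2 with each library left out; it was 2 without NB 1 or LB 1, and 0 without NB 2 or LB 2. The median of the general transcripts ranged from -0.111 (without NB 2) to 0.127, with -0.0365 for summed transcripts, and that of the paralogs from 0.0152 to 0.274 (without NB 1). The repeat numbers or library names give only 2 pairs each, with correlations of -0.156 and 0.0187 or -0.156 and -0.179 between same-numbered samples, and the labels do not call the vials paired. Where the replicate block followed the repeat number, edgeR called 5 of 17337 transcripts, none Vha, and 5 Vha directions reversed, at log2 fold changes of 0.00971 for VhaAC45RP, -0.000325 for Vha100-2, -0.00218 for Vha16-1, 0.227 for Vha16-3 and 0.0562 for VhaM9.7-c. With the block by library name 6 reversed, at -0.0440 for VhaAC45, 0.156 for Vha55, -0.00361 for Vha36-3, -0.0634 for Vha13, -0.0183 for Vha16-4 and -0.109 for VhaM9.7-b. Scaling by library size turned Vha55 to 0.0120. DESeq2, its size factors, both filters and summed transcripts reversed no member. The cause was not tested.

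With each library left out in turn, 25 transcripts crossed 0, 11 of them without NB 1 and 11 without NB 2. Their log2 fold changes ranged from -0.170 to 0.398 and from -0.0987 to 0.207 for Vha100-2, -0.0817 to 0.310 for Vha13, -0.150 to 0.245 for Vha14-1, -0.483 to 0.105 for Vha14-2, -0.00822 to 0.151 for Vha16-1, -0.0773 to 0.274 for Vha16-2, -0.420 to 0.257 for Vha16-3, -0.187 to 0.467 for Vha16-4, -0.246 to 0.0700 for Vha16-5, -0.326 to 0.0213 for Vha26, -0.200 to 0.170 for Vha36-1, -0.653 to 0.434 for Vha36-3, -0.571 to 0.119 and -0.359 to 0.440 for Vha55, -0.0355 to 0.290 and -0.848 to 0.460 for Vha68-2, -0.0831 to 0.180 for VhaAC39-1, -0.0726 to 0.181 and -0.333 to 0.0130 for VhaAC45, -0.138 to 0.000365 for VhaAC45RP, -0.159 to 0.447 for VhaM9.7-b, -0.141 to 0.0484 for VhaM9.7-c, -0.346 to 0.0585 for VhaPPA1-1 and -0.0260 to 0.468 for VhaPPA1-2. With 1 NB library left, that library is assumed to vary like the LB libraries. Depth limits the 6 members with under 100 counts, whose standard errors were 0.489 to 0.986.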
